A study of Mus musculus with 10 samples.

Results

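Expression of 10 macrophage scavenger and tissue genes was examined: *Msr1*, *Marco*, *Cd36*, *Mrc1*, *Cd68*, *Folr2*, *C1qa*, *C1qb*, *C1qc* and *Mmp12*. They were found by gene symbol among 24062 gene rows, 18854 of which had a read in any library. The members were chosen by their measured difference between no Notch control cultures and DN cells in these same libraries, so their control and DN levels are given as descriptions without a test. RNA-seq covered 10 mouse libraries, all started from C57BL/6J bone marrow LSK cells (Lin-SCA1+KIT+ progenitors) expanded in SCF, FLT-3 ligand, IL-6 and IL-11, the 4GF mixture. DN1 cells (KIT++CD44+CD25-, 2 libraries) were sorted from cultures on a high density of the immobilized Notch ligand Delta1ext-IgG without IL-7. DN2a (KIT++CD44+CD25+, 2 libraries) and DN2b cells (KIT+CD44loCD25+, 2 libraries) were sorted from the same kind of culture with IL-7 added, so stage and IL-7 change together. The no Notch control (4 libraries, labelled IgG) was LSK cells kept on human IgG until day 14 and is not described as sorted, so the ligand and the sort cannot be told apart. The paper describes IL-7 as added to the Delta1 cultures at day 14. For DN2a and DN2b against the control, IL-7 and time in culture therefore cannot be told apart from the ligand either. The animals' ages were not among the details used here, and the DN libraries of a stage are called replicates 1 and 2, replicate 1 having the earlier date in its title. The control titles read D1, D2, R1 and R2, with the letters unexplained.

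Macrophages take up modified lipoproteins, microbes and dying cells through scavenger receptors, a family of unrelated surface proteins that bind polyanionic or glycosylated ligands. MSR1 and MARCO are class A receptors with collagenous stalks, CD36 is a class B receptor for oxidized lipids and fatty acids, and CD68 is a glycoprotein of late endosomes and lysosomes. MRC1, the mannose receptor, is an endocytic lectin, and FOLR2 is the beta folate receptor of tissue macrophages. C1QA, C1QB and C1QC are the chains of C1q, which starts the classical complement pathway and which macrophages make themselves. MMP12 is macrophage elastase, a secreted matrix metalloprotease.

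The genes lie on 8 chromosomes (GENCODE vM21, GRCm38, the mm10 build), and the C1q genes neighbour each other on the minus strand of chromosome 4, *C1qb* from 136880129 to 136886187, *C1qc* from 136889804 to 136893065 and *C1qa* from 136895917 to 136898803. *Msr1* spans 39581685 to 39642673 on chromosome 8, *Mmp12* 7344381 to 7369499 on chromosome 9, *Folr2* 101839988 to 101857194 on chromosome 7 and *Mrc1* 14229392 to 14332057 on chromosome 2. *Marco* spans 120474538 to 120505024 on chromosome 1, *Cd68* 69664213 to 69666153 on chromosome 11 and *Cd36* 17781690 to 17888801 on chromosome 5. All are protein coding, and counts cover their exons.

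RefSeq promoter windows (GRCm38.p6), the 250 bases before an annotated start, were matched for 8 of the 10 genes, in 10 windows. *Msr1* and *C1qa* had no entry. The 4 shown are those of the gene with the highest level per exon length, of a C1q chain, of the matrix protease (the first of its 2 windows) and of the gene with both DN2b libraries above all other DN libraries. Capitals mark, on either strand, the PU.1 core GAGGAA, the AP-1 site TGANTCA, the C/EBP site TTGCNNAA, the E-box CANGTG and the RBPJ core TGGGAA. The TATA box, TATAAA, was searched as well and was in none of the 10 windows.
*Cd68*, minus strand, chr11:69666171-69666420: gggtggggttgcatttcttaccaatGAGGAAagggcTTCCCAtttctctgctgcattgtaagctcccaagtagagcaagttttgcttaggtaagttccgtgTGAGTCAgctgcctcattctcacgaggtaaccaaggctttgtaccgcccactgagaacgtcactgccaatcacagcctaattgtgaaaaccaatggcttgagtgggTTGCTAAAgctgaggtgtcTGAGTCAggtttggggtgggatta
*C1qb*, minus strand, chr4:136886201-136886450: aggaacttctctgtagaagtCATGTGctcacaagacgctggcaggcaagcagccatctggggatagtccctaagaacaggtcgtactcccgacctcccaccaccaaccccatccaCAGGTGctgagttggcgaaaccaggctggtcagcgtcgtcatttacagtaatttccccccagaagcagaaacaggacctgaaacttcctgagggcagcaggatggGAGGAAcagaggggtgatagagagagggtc
*Mmp12*, plus strand, chr9:7344147-7344396: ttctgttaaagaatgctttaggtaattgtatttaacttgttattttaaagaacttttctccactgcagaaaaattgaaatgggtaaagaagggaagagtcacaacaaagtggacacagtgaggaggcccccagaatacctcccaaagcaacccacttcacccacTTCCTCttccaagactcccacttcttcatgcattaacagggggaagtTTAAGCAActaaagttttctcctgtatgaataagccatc
*Mrc1*, plus strand, chr2:14229164-14229413: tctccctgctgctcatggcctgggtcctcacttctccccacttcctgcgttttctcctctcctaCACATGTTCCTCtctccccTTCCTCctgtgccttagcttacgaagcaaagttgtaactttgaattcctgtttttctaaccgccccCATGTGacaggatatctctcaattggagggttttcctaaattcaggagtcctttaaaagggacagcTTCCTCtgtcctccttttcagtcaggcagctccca
The PU.1 core, the letters bound by the myeloid factor PU.1, stood in all 4 of these windows and in 6 of the 10 windows of the genes, against 23.25% of 32851 promoter windows of that length. It was not in the other *Mmp12* window. The AP-1 site stood in 3 of the 10 windows (6.749% of all windows), *Cd68* holding a pair, and the C/EBP site in 2 (9.564%). The E-box stood in 5 (39.51%) and the RBPJ core, the letters bound by the nuclear partner of Notch, in 3 (21.59%), while the TATA box was in 12.37% of all windows. In *Mrc1* an E-box and a PU.1 core touch without overlapping. A match of letters is not a bound site.

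The libraries held between 12354635 and 35367925 gene reads. Levels are in CPM, read counts scaled to a common number of gene reads, and 3 reads in a library, the floor used here, were worth 0.0848 to 0.243 CPM. The study's methods describe replicates as separate isolations of LSK cells, with all DN stages taken from each, without tying a library to an isolate. The control held macrophage and neutrophil markers side by side, with the 15 macrophage markers summing to 9798 to 17320 CPM per library and 9 neutrophil genes to 23320 to 63190 CPM. *Lyz2*, the lysozyme of macrophages and neutrophils, led the macrophage markers at 8566 ± 2977 CPM (SD, n = 4), *Csf1r*, the receptor for M-CSF, had 904.6 ± 322.7 CPM, and the neutrophil gene *S100a9* had 9629 ± 4349 CPM. DN2a and DN2b had *Il2ra*, which encodes CD25, at 1392 ± 366.7 and 1939 ± 257.3 CPM (SD, n = 2 each), against 1.128 ± 0.801 in the control. The DN1 libraries stood apart from each other in neutrophil RNA, with *S100a9* at 1045 CPM in replicate 1 and 17.8 in replicate 2 and *Lyz2* at 267.7 and 24.6, while *Csf1r* had 21.8 and 25.9 CPM and the macrophage markers without *Lyz2* summed to 156.1 and 97.9.

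The 10 genes together took 0.648% of the gene reads of control library D1, 0.307% of R1, 0.109% of R2 and 0.0922% of D2, and between 0.000309% and 0.00143% of those of a DN library. In 9 of the 10 genes every control library was above every DN library, which held for 16.5% of the 12221 genes with enough reads to be tested. That contrast chose the genes, so nothing is read from the count. *Marco* was the gene left out by the filter, which needs at least 1 CPM in 2 libraries, and all of the other 9 but *Cd68* and *Mrc1* passed it through the controls alone. Over these 9, the median ratio of control to DN level was at least 1059 for DN1, 1404 for DN2a and 941.3 for DN2b. A gene without reads in a stage enters at its lower bound, which depends on depth, so the order of the stages is not read. Leaving out D1 lowered the control mean by 1.52 times for *Msr1*, 1.61 for *C1qa*, 1.70 for *C1qc*, 1.96 for *Mmp12*, 2.20 for *Folr2* and 2.91 for *Cd36*, and leaving out R1 lowered that of *Mrc1* by 1.56 times, and each fold given for these genes moves by the same factor. Fewer cells of a type and less RNA per cell cannot be told apart in these bulk samples. The plot of the levels by library shows the gap and the genes that cross it least.

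**Figure D1:**
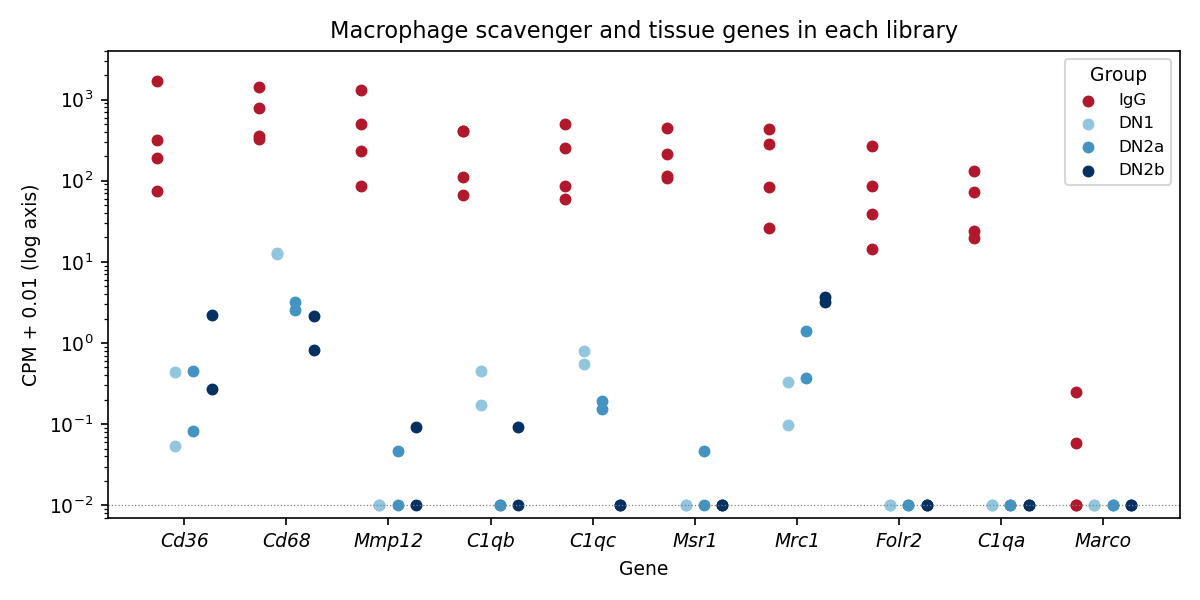
CPM of the 10 genes in each library (y axis, log scale, 0.01 added so that 0 can be drawn on the dotted line) for the no Notch control (IgG, 4 points) and DN1, DN2a and DN2b (2 points each). Control points lie above all DN points in 9 genes, the DN points of *Cd68* are highest at DN1 (12.3 and 12.9 CPM), those of *Mrc1* are highest at DN2b (3.19 and 3.64 CPM), and *Marco* is near 0 throughout.

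The class A receptors gave opposite pictures in the control. *Msr1* had 444.6 CPM in D1, 106.6 in D2, 215.6 in R1 and 113.5 in R2, a mean of 220.1 ± 157.8 (SD, n = 4). Of its reads in the DN libraries there was 1 in all, in DN2a replicate 1, against 22863 in the controls. The control level was at least 3017-fold that of DN1 and at least 2034-fold that of DN2b. For DN2a the ratio was 9104, with a 95% exact Poisson interval from 1634 to 359600 that covers counting error only. *Marco*, the other class A receptor, had 1 read in D1, 6 in D2 and none in R1, R2 or the DN libraries. Its mean in the control, 0.0714 ± 0.113 CPM, was at the floor, and no fold is given. *Marco* was the 1 gene of the group with hardly any reads in either culture.

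*Cd36*, the class B receptor, had 1676 CPM in D1, 74.1 in D2, 316.6 in R1 and 191.2 in R2, the widest control range of the group at 22.6-fold. DN1 replicates 1 and 2 had 0.0442 and 0.433 CPM, the DN2a replicates 0.437 and 0.0719 and the DN2b replicates 0.260 and 2.19. These are 1 and 8, 12 and 1, and 4 and 27 reads. The replicates of each stage differed 6.08-fold or more. The control mean, 564.4 ± 747.5 CPM, was 2579-fold the DN1 level, 1796-fold that of DN2a and 504.9-fold that of DN2b. Without D1 the control mean was 194.0 CPM and these ratios were 886.2, 617.2 and 173.5.

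*Cd68*, the lysosomal glycoprotein, had 1438 CPM in D1, 324.7 in D2, 790.7 in R1 and 354.7 in R2, a mean of 727 ± 519.6 (SD, n = 4). Of the group it left the most reads in DN cells, 517 for DN1, 123 for DN2a and 43 for DN2b. DN1 replicates 1 and 2 had 12.3 and 12.9 CPM, the DN2a replicates 3.21 and 2.52 and the DN2b replicates 2.15 and 0.809. The libraries of the stages did not overlap, and the levels descend from DN1 through DN2a to DN2b. The control was 57.8-fold above DN1, 244.5-fold above DN2a and 468.8-fold above DN2b. The DN1 libraries had nearly equal *Cd68* at an *S100a9* level of 1045 CPM in replicate 1 and 17.8 in replicate 2.

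*Mrc1*, the mannose receptor, had 285.0 CPM in D1, 26.1 in D2, 428.8 in R1 and 84.2 in R2, and was the gene whose highest control was R1 and not D1. In the DN libraries it ran the other way from *Cd68*, with 0.0884 and 0.325 CPM at DN1, then 1.38 and 0.359 at DN2a and 3.19 and 3.64 at DN2b. Its reads were 2 and 6, 38 and 5, and 49 and 45. The DN2b libraries lay close together and above the other DN libraries. The control mean of 206 ± 185.4 CPM was 1059-fold that of DN1 and 60.8-fold that of DN2b. In the DN2b libraries that held 94 *Mrc1* reads there was no read of *Msr1*, *Folr2*, *C1qa* or *C1qc* and 1 read of *Csf1r*.

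*Folr2*, the folate receptor, had 268.3 CPM in D1, 14.6 in D2, 86.0 in R1 and 38.5 in R2 (mean 101.8 ± 114.9). It had no read in any DN library. The control was at least 1396-fold above DN1, at least 1404-fold above DN2a and at least 941.3-fold above DN2b. D1 was 18.4-fold above D2, and those libraries carry the same letter.

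All C1q chains were read in each control library, and DN1 held reads of *C1qb* and *C1qc* but not of *C1qa*. *C1qa* had 132.4 CPM in D1, 19.5 in D2, 71.6 in R1 and 24.0 in R2, and no read in any DN library. *C1qb* had 410.8, 65.8, 405.1 and 111.5 CPM in the same order, and 10 and 3 reads in the DN1 replicates, none in DN2a and 1 in DN2b. *C1qc* had 501.9, 58.7, 249.9 and 86.3 CPM, and 18 and 10 reads in the DN1 replicates, 5 and 2 in those of DN2a and none in those of DN2b. The DN1 levels were 0.442 and 0.162 CPM for *C1qb* and 0.795 and 0.541 for *C1qc*, both higher in replicate 1, as *Lyz2* and *S100a9* were. The part of other cells in these reads was not tested. The control was 785.5-fold above DN1 in *C1qb*, 329.3-fold in *C1qc* and at least 848.3-fold in *C1qa*.

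*Mmp12*, macrophage elastase, had 1322 CPM in D1, 231.6 in D2, 500.7 in R1 and 85.2 in R2, a mean of 534.7 ± 552.1 (SD, n = 4). The DN libraries held 2 reads in all, 1 in DN2a replicate 1 and 1 in DN2b replicate 2. The control was at least 7330-fold above DN1, where no read was counted. R2 was its lowest control, while D2 was lowest in the other 8 detected genes.

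To compare the genes with each other, CPM was divided by the exon length in kb. In the control *Cd68* stood first at 578.4 ± 413.4 CPM per kb (SD, n = 4), and it was first in each of the 4 libraries. *C1qb* followed at 228.2 ± 170.3, *Cd36* at 157.2 ± 208.2, *C1qc* at 116.1 ± 105.3, *Mmp12* at 73.9 ± 76.3 and *Folr2* at 65.9 ± 74.3 CPM per kb. *C1qa* had 59.5 ± 50.6, *Msr1* 34.7 ± 24.9, *Mrc1* 32.3 ± 29.1 and *Marco* 0.0371 ± 0.0587 CPM per kb. Between neighbours in this order the gap was smaller than the larger SD of the pair, except between *Mrc1* and *Marco*, where it was 1.11 times that SD. Neighbours above *Marco* thus lay within the spread over libraries, a measure that takes no account of the libraries being shared, and in each of the 4 libraries *Cd68* was above *C1qb* and *C1qa* above *Msr1*. Ranks shifted most for *Mmp12*, at rank 3 in D2 and rank 9 in R2. The chains of C1q, which join in equal numbers in the protein, had a *C1qb* level per kb between 2.97 and 5.41 times that of *C1qa* within a library.

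**Figure D2:**
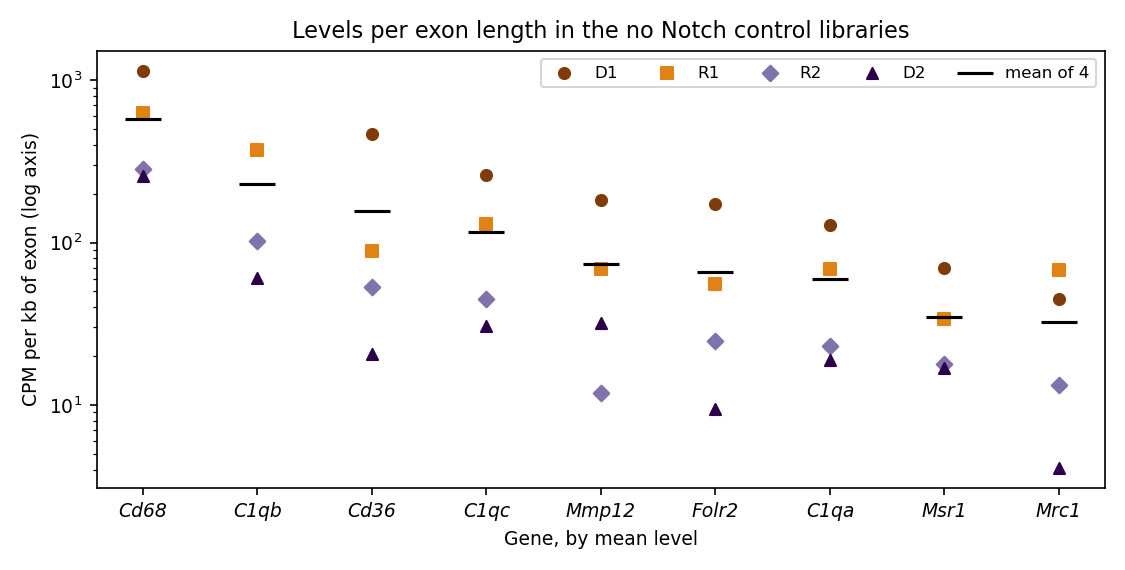
CPM per kb of exon (y axis, log scale) of the 9 genes detected in the no Notch control, ordered by mean, for libraries D1, R1, R2 and D2 and their mean (bar). *Cd68* leads in all 4 libraries, at 1144, 629, 282.2 and 258.3 CPM per kb, and the ranges of neighbouring genes overlap.

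The control libraries differed widely among themselves in these genes. D1 was highest in 8 of the 9 detected genes and D2 lowest in 8, and the ratio of the highest to the lowest control ran from 4.17 for *Msr1* to 22.6 for *Cd36*. The genes did not keep 1 ratio to each other. Reads of *Cd68* per read of *Msr1* stayed between 3.05 and 3.67, and those of *C1qc* per read of *C1qa* between 3.01 and 3.79. By contrast, *Mrc1* per *Msr1* ran from 0.245 in D2 to 1.99 in R1, an 8.13-fold range, and *Cd36* per *Msr1* from 0.695 in D2 to 3.77 in D1, a 5.42-fold range. *C1qb* per *C1qa* was 3.10 and 3.37 in D1 and D2 and 5.66 and 4.65 in R1 and R2, lower in both D than in both R libraries. The plot of each gene against its control mean shows these departures.

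**Figure D3:**
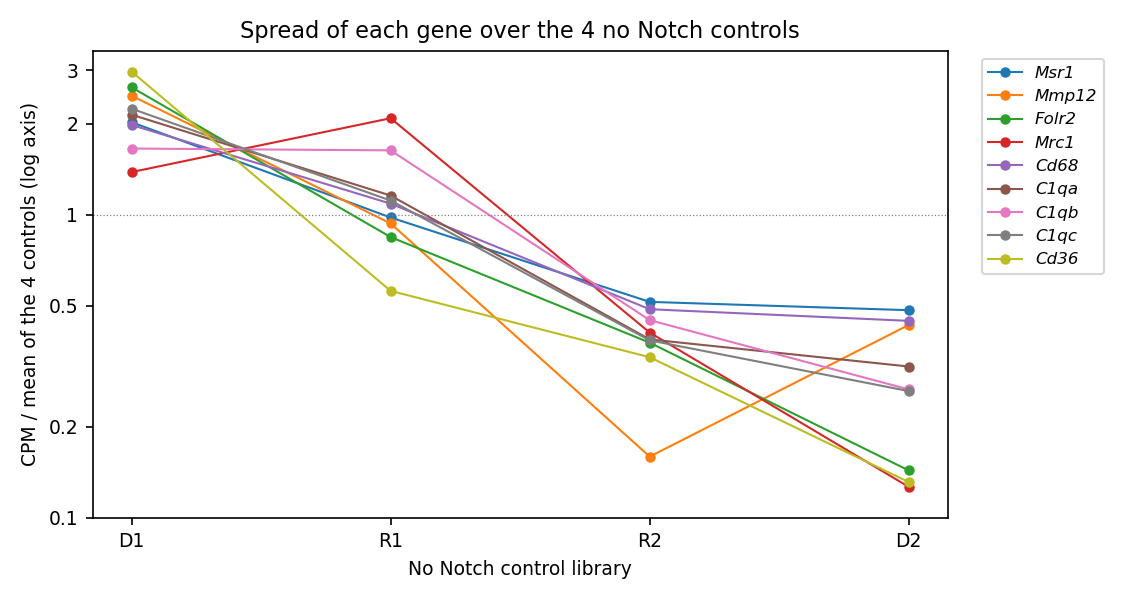
CPM of the 9 detected genes divided by the mean of the 4 no Notch controls (y axis, log scale) in libraries D1, R1, R2 and D2. Lines descend from D1 to D2 for most genes, with *Mrc1* highest in R1, *Mmp12* lowest in R2 and *Cd36* widest, from 1676 CPM in D1 to 74.1 CPM in D2.

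The summed level of the macrophage markers was 11010 CPM in D1, 11310 in D2, 17320 in R1 and 9798 in R2, and most of it was *Lyz2*, which neutrophils share. Without *Lyz2* the other 14 markers summed to 5084, 2482, 4671 and 2935 CPM, with D1 highest and D2 lowest, the order of most of these genes. The sum of 9 neutrophil genes was 23320, 63190, 40950 and 23960 CPM, highest in D2, and that of 8 dendritic cell genes was 48.5, 1091, 249.8 and 130.7 CPM, again highest in D2, where the scavenger genes were lowest. That of the 16 lipid handling genes was 11590, 3032, 5451 and 3895 CPM, highest in D1. The part of these cell types in the spread was not tested.

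Whether the letters in the control titles mark a difference was tested on R1 and R2 against D1 and D2. None of the 9 genes passed an adjusted p of 0.05 (quasi-likelihood test of edgeR, Benjamini-Hochberg adjusted over 12221 genes), none had an unadjusted p under 0.05, and DESeq2 called none. Over all genes edgeR called 0%, and 1159 genes had an unadjusted p under 0.05. *Cd36* had the largest log2FC in size, -2.01 (SE 1.25, adjusted p = 0.636, edgeR), and *Mrc1* was the gene higher in R, with 0.54 (SE 1.07). Both rest on single libraries, since *Cd36* turned to 1.54 without D1 and *Mrc1* to -0.34 without D2 and -1.24 without R1. For *C1qb* the log2FC was -0.08 (SE 0.90) and became 0.12 with scaling to library size only. In simulated data of this design, with 1 dispersion of 0.189 for all genes, 27 of 200 genes changed by a log2FC of 2 were recovered. Few changes of that size were thus seen even there. Over the controls the SD of *Cd36* and of *Mmp12* exceeded the mean, so this recovery is not that of the members.

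The DN stages were compared on the same fit, a contrast that did not choose the genes. Of the 9 genes fitted, 7 had passed the filter through the controls alone and had too few DN reads to say much of the stages, which leaves *Cd68* and *Mrc1*. Neither passed in DN2a against DN1, where 0.401% of all genes were called, in DN2b against DN1, where 1.91% were called, or in DN2b against DN2a, where 0% were called (edgeR's quasi-likelihood test, adjusted p under 0.05). Unadjusted p-values under 0.05 were found for *Cd68* in DN2a against DN1, for *Cd68* and *Mrc1* in DN2b against DN1, and for none in DN2b against DN2a. Unadjusted, 1328, 1694 and 335 of all genes were under 0.05 in the 3 comparisons.

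*Cd68* had a log2FC of -2.86 in DN2b against DN1 (SE 0.82, adjusted p = 0.141, edgeR), with both DN2b libraries below both DN1 libraries. In DN2a against DN1 it was -1.94 (SE 0.77, adjusted p = 0.400), and in DN2b against DN2a -0.93 (SE 0.82, adjusted p = 1). *Mrc1* had a log2FC of 4.25 in DN2b against DN1 (SE 1.46, adjusted p = 0.217), with both DN2b libraries above both DN1 libraries. For DN2a against DN1 its log2FC was 2.38 (SE 1.53, adjusted p = 0.624). DESeq2 gave *Cd68* and *Mrc1* adjusted p-values of 0.00448 and 0.00496 in DN2b against DN1 while calling 821 genes over the whole table where edgeR called 233. The 2 tools therefore differ on whether *Cd68* and *Mrc1* changed, and over all settings the adjusted p ran from 0.00448 to 0.473 for *Cd68* and from 0.00496 to 0.844 for *Mrc1*.

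The stage contrasts of *C1qb*, *C1qc* and *Cd36* are not read as results, since these genes entered the fit through the controls. They had 14, 35 and 53 reads over the 6 DN libraries. *Msr1*, *Mmp12*, *Folr2*, *C1qa* and *Marco* had at most 2 reads over the 6 DN libraries, and a difference between stages was not detectable at this depth. Other macrophage markers also differed in the order of their stage means. *Csf1r* had 23.8 ± 2.88 CPM in DN1 and 0.127 ± 0.0243 in DN2a (SD, n = 2 each), and *Emr1*, which encodes F4/80, had 1.94 ± 2.44 CPM at DN1, 7.60 ± 4.20 at DN2a and 23.7 ± 23.8 at DN2b. *Emr1* had 6.90 and 40.6 CPM in DN2b replicates 1 and 2, and *Cd36* was likewise higher in replicate 2. The 7 endothelial markers summed to 65.4 CPM in DN2b replicate 1 and 156.7 in replicate 2, and the 8 mast cell and basophil markers to 2824 and 643.0 CPM in the DN1 replicates, against 253.8 to 563.6 in the DN2a and DN2b libraries. The part of other cells in these levels was not tested.

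**Figure D4:**
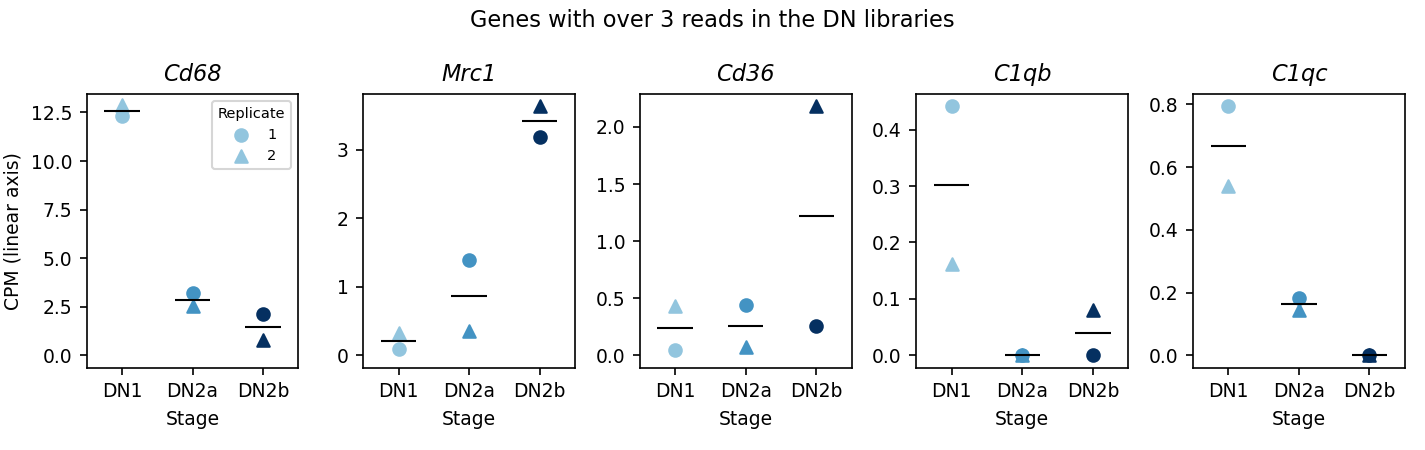
CPM (y axis, linear and separate for each panel) of the 5 genes with over 3 reads in the DN libraries, at each stage, with circles for replicate 1, triangles for replicate 2 and bars for means. *Cd68* descends from 12.6 to 1.48 CPM in the mean and *Mrc1* ascends from 0.206 to 3.42, neither past an adjusted p of 0.05 in edgeR, and the other panels stay near 2 CPM or below.

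Genes of related roles were then counted in the mean of the 3 DN stages against the control. This log2FC averages the log levels of the 3 stages. A stage with few or no reads therefore pulls it below the log ratio of the mean CPM, by an amount that depends on the prior count. Over all genes 30.0% were called lower in DN and 24.8% higher, with a median log2FC of -0.03 (edgeR's quasi-likelihood test, adjusted p under 0.05). Of 15 macrophage identity markers 11 were tested, and all 11 fell, with a median log2FC of -8.80. *Siglec1*, *Cd14*, *Fcgr1* and *Mertk* passed the filter through the controls alone and could only be called lower. The same holds in other lists, for example for *Cxcl16*, *Clec7a*, *C3ar1*, *C5ar1*, *Fabp4* and *Mmp27*. *Cd163l1*, *Mmp11*, *Mmp15* and *Mmp17* passed it through DN libraries alone and could only be called higher. This contrast also chose the members, so the list counts are descriptions. *Csf1r* fell from 904.6 ± 322.7 CPM (SD, n = 4) to 7.99 ± 12.3 (SD, n = 6), a log2FC of -10.96 (SE 0.42, adjusted p = 6.9e-07). *Siglec1*, the sialic acid receptor CD169, had 58.9 ± 31.8 CPM in the control and no DN read and was at least 2163-fold lower in DN cells. *Cd14*, the co-receptor for lipopolysaccharide, fell by 13.26 on the log2 scale (SE 1.02). Its 37 DN reads all lay in DN1, with none in DN2a or DN2b, so the size of that fall depends on the prior count. Without DN1 replicate 1 the log2FC of *Cd14* was -15.56, and without DN2b replicate 2 that of *Csf1r* was -11.94. The 4 markers not tested were *Cd163*, *Timd4*, *Vsig4* and *Clec4f*, genes of resident tissue macrophages. *Timd4* and *Vsig4* had 3 and 2 reads over the 4 controls, and *Cd163*, the haemoglobin scavenger receptor, had 0.379 ± 0.152 CPM in the control and 2.44 ± 2.30 in DN1.

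Among 19 other scavenger receptors 14 were tested, of which 10 fell, 1 rose and 3 did not pass. *Cxcl16*, a scavenger receptor and chemokine, fell from 115.0 ± 77.0 CPM to 0.0147 in the mean of the DN libraries (2 reads). *Clec7a*, the beta-glucan receptor dectin-1, fell by 12.92 on the log2 scale (SE 0.74, 9 DN reads). *Olr1*, a receptor for oxidized LDL, had a log2FC of -9.36 (SE 1.25, 37 DN reads). The receptor that rose was *Cd163l1*, a scavenger receptor cysteine-rich protein known from gamma delta T cells, with 1 read in the 4 controls and 1758 in the DN libraries, a log2FC of 8.04 (SE 0.77), which was 9.37 without R2, the control with the read. Without DN1 replicate 1 the log2FC of *Cxcl16* was -14.42 and that of *Olr1* -10.57, and *Cxcl16* had -12.80 without D1 and *Olr1* -8.51 without D2. The level of *Cd163l1* was 0.234 ± 0.205 CPM at DN1, 5.07 ± 1.58 at DN2a and 57.6 ± 34.6 at DN2b (SD, n = 2 for each stage).

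Of 26 other complement genes 15 were tested, and 11 fell, none rose and 4 did not pass. The receptors *C3ar1* and *C5ar1* fell with log2FC values of -14.69 (SE 0.99) and -13.35 (SE 0.93), *C3ar1* from 726 ± 671 CPM. Their DN reads were 9 and 17 in all. *C3*, the central component, fell from 603.8 ± 211.5 CPM, a log2FC of -11.23 (SE 1.22). It had no read in DN2a, and its highest DN library still had 39.3 CPM. Without that library, DN1 replicate 1, *C3* had -12.91 and *C5ar1* -15.30, and *C3ar1* had -15.46 without DN2a replicate 1 and -13.72 without D1. The 4 that did not pass were the regulators *Cd55*, *Cd59a* and *Cr1l* and the integrin *Itgax*, and *Cr1l* had 90.6 CPM in the control and 122.4 in DN. Of the proteases that join C1q in the C1 complex, *C1ra* had 2.92 CPM in the control and fell, and *C1rb* and *C1s1* had too few reads to be tested.

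Of 24 other matrix proteases and inhibitors 15 were tested, of which 10 fell, 3 rose and 2 did not pass. *Mmp8*, the neutrophil collagenase, fell from 918 ± 269.9 CPM, a log2FC of -12.19 (SE 1.20). *Mmp19* and *Mmp27* fell with -9.62 (SE 0.79, 25 DN reads) and -9.10 (SE 1.35, 8 DN reads). *Mmp15* and *Mmp17*, both membrane-type proteases, and *Mmp11* rose in DN, by a log2FC of 5.58 (SE 1.01), 4.0 (SE 0.55) and 3.33 (SE 0.73). Without DN1 replicate 1 *Mmp8* had -13.91 and *Mmp19* -10.29, the latter also -11.11 without DN2a replicate 2, and without D1 *Mmp27* had -7.89 and *Mmp15* 6.60, the latter also 4.94 without DN1 replicate 2. *Mmp15* had 0.841 ± 0.876 CPM in DN1 and 12.3 ± 11.3 in DN2b. With D1 and D2 as the only controls *Mmp11* did not pass (adjusted p = 0.0634).

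All 16 lipid handling genes were tested, and 13 fell, none rose and 3 did not pass. *Lpl*, the lipoprotein lipase, had 569.7 ± 676.1 CPM in the control and fell with a log2FC of -8.60 (SE 1.15). *Fabp4*, a fatty acid carrier, fell with -11.80 (SE 1.26, 8 DN reads) and *Apoe*, apolipoprotein E, with -8.57 (SE 0.66). Without D1 *Lpl* had -7.22 and *Fabp4* -10.81, and without DN2b replicate 2 they had -9.93 and -13.78. *Lpl* had -9.55 without DN2a replicate 2, and *Apoe* had -9.24 without DN1 replicate 1. Markers of other cells moved with the culture as well, 9 neutrophil genes summing to 3123 and 87.2 CPM in the DN1 libraries and 1.496 to 20.2 in those of DN2a and DN2b, against 23320 to 63190 in the controls, and their part in these counts was not tested.

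**Figure D5:**
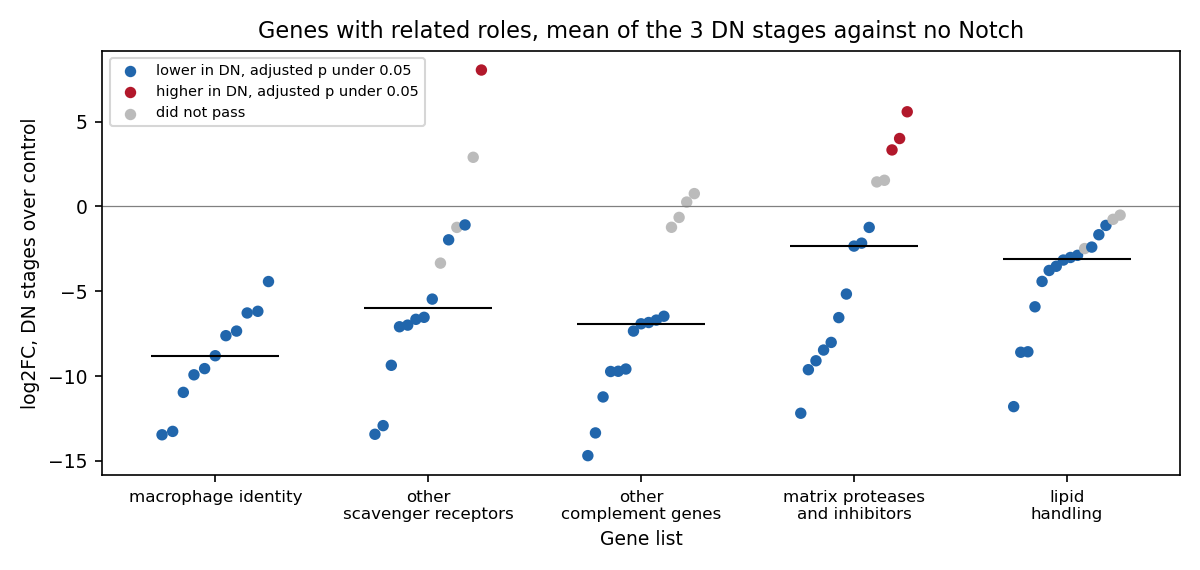
The log2FC of each tested gene of 5 lists (y axis), mean of the 3 DN stages against the no Notch control, with the list median as a bar and colours for genes past an adjusted p of 0.05 in edgeR. All 11 macrophage identity genes lie below 0, and 1 scavenger receptor (*Cd163l1*) and 3 matrix proteases are marked as higher.

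The genes whose log CPM was most like each member over the 10 libraries were searched among 10495 genes, as a description, since all points share the split between control and DN libraries. *Msr1* was closest to *P2ry6*, a nucleotide receptor (Pearson r = 0.9985, 10 libraries), *C1qb* to *Fam20c* (0.9983) and *Folr2* to *Stx7* (0.9977). *Cd68* and *C1qc* were both closest to *Sh3bp2* (0.9942 and 0.9953), and *C1qa* was among the nearest 3 genes of *Msr1*, *Mmp12* and *Folr2*. *Cd36* was closest to *Mertk*, a receptor for dying cells (0.9913), followed by *Ctsk*. *Mrc1* was closest to *Pik3r5* (0.9891). *Mrc1*, *C1qb*, *C1qc* and *Cd36* had no member of the group among their nearest 3.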

How the data were processed

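Total RNA of 10 libraries was sequenced (TruSeq Stranded Total RNA, HiSeq2000). The authors aligned the first 36 bases of read 1 to mm10 with TopHat and deposited raw counts per gene from htseq-count in intersection-strict mode. The submitters' processing notes name TopHat2 2.12, Cufflinks 2.2.1 and HTSeq 0.6.1p1, and the annotation and strand setting were not given in the sources used here, so overlapping genes are uncertain. Reads with several alignments (16.4% to 30.1% of those tallied) and the other summary lines were left out.

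CPM was computed on gene reads. Genes with at least 1 CPM in 2 libraries were fitted with edgeR 4.0.16 in R 4.3.3 (quasi-likelihood test, TMM, prior count 0.125), in 1 fit of 10 libraries and 4 groups, or 5 for R against D. p-values were adjusted over all genes. DESeq2 1.42.0, other scalings and filters, a replicate block and each library left out were alternatives. Folds of members are ratios to pooled DN CPM. A stage with no read enters at 3 counts over the group, giving a lower bound, and one with 1 to 3 reads at its own value.

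The members and lists were chosen with earlier results of these data known. The counts of a list of folate genes are not reported here. Of each list the text names the called genes opposite to most of its calls and the 3 called with the largest log2FC (mean of 5 CPM or more where higher), and for each member the nearest of the 3 genes most alike in log2 CPM (prior count 2). List genes outside this rule, such as *Emr1*, *Cd163*, *Cr1l* and *C1ra*, were named after their values were seen. Tested on simulated data, the fit recovered 31 of 200 genes changed by a log2FC of 2 in DN2b against DN1, with 0 false calls among 11907 genes, and 178 of 199 with 12 false calls among 11893 genes in DN against control. DN2a and DN2b libraries of the same replicate number share the date in their titles. Deviations of same-numbered libraries correlated across genes at 0.0842 (DN1 and DN2a), 0.287 (DN1 and DN2b) and 0.270 (DN2a and DN2b).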

Additional observations from a re-analysis of the deposited data

Results flagged for a closer look

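Of 32 genes screened over the 4 no Notch controls, 3 had a library far from the others (its gap to the nearest library, as a share of the whole range, above Dixon's 95% critical value), and chance gives about 1 in 20. *Cd36* had 1676 CPM in D1, a gap of 0.849 of the range. *C3ar1* had 1727 CPM in D1, a gap of 0.884. *Cd163l1* had 0.0337 CPM in R2, which is 1 read against none in the other controls, a gap of 1.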

How the results depend on the processing

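With 2 libraries per DN stage, few changes are seen, and genes with few reads carry fold changes that depend on the prior count. With DESeq2, 3 genes of the group were called in DN2b against DN1, *Cd68*, *Mrc1* and *C1qc*, of which *C1qc* had passed the filter through the controls alone, where edgeR called 0. The fitted median log2FC of the 9 genes against the control was -11.59 in DN1, -13 in DN2a and -13.56 in DN2b, and with a prior count of 2 it was -9.69, -10.29 and -10.29. With genes lacking DN reads at their bound it was -10.05, -10.46 and -9.88. With each library left out in turn the DN1 median ran from -13.57 (without DN1 replicate 2) to -10.00 (without D1).

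*Cd36* had passed the filter through the controls alone, and its stage contrasts are not read as results. With each library left out, its log2FC ran from -1.35 to 2.81 in DN2a against DN1 and from -0.125 to 3.90 in DN2b against DN2a. In R against D the log2FC ran from -1.66 to 0.393 for *Msr1*, -2.96 to 1.54 for *Cd36*, -3.54 to 0.144 for *Mmp12*, -2.33 to 1.87 for *Folr2*, -1.24 to 3.10 for *Mrc1*, -1.67 to 0.592 for *Cd68*, -2.02 to 1.08 for *C1qa*, -1.45 to 1.76 for *C1qb* and -2.05 to 1.30 for *C1qc*, the sign turning without D1 in all of these but *Mrc1*, which turned without D2 or R1, and *C1qb* turning without R2 as well. Scaling to library size only gave *C1qb* 0.116 there and moved the median log2FC of all genes from -0.08 to 0.18, from -0.02 to -0.21 in DN2b against DN1 and from -0.03 to -0.22 in DN2a against DN1. The causes were not tested.

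Over all genes, 233 were called in DN2b against DN1 by edgeR, 821 by DESeq2, 80 with only the groups compared, and 51 (without DN2b replicate 2) to 383 (without DN1 replicate 2) with a library left out. In DN2a against DN1 the numbers were 49, 478, 25 and 0 (without either DN2a replicate) to 229 (without DN1 replicate 2), with 101 without a filter. In DN2b against DN2a and in R against D, 0 were called by edgeR and 29 and 136 by DESeq2. With the replicate number as a replicate block, in a fit of the 6 DN libraries, only *Cd68* and *Mrc1* of the group passed the filter and 0 were called in each DN comparison, and 58, 233 and 0 genes in all, against 32, 187 and 0 in the same libraries without it. For DN against control, fitting only the groups compared is the same fit. The genes called ran from 9 to 12 for the other scavenger receptors (11 reported) and from 9 to 15 for the matrix proteases and inhibitors (13 reported).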
